A study of Drosophila melanogaster with 4 samples.

Results

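The CySC-like cells were the cyst stem cell-like cells of testis tumors of Drosophila melanogaster, profiled by single-cell RNA sequencing in 4 droplet libraries. They were the cells to which the deposited annotation gave the label CySC-like, 8261 of 20618 cells in all. The other cells carried the labels GSC-like (germline stem cell-like, 10889 cells), spermatocyte (624), somatic (515) and muscle (329). Overexpression of Unpaired (Upd), the ligand of the JAK-STAT pathway, had given rise to the tumors. In the 2 Nanos-Upd libraries the genotype was y[1] w[1118] P{hs70FLP}, with P{w[+mC]=GAL4::VP16-nanos.UTR} over UAS-Upd, a driver active in the germline. In the 2 TrafficJam-Upd libraries it was w[1118], with traffic Jam-GAL4 over UAS-Upd, a driver active in cyst cells. All flies carried 1 copy of UAS-FRT-H3-GFP-FRT-H3-mKO, a histone reporter, and were kept at 25 °C, and no library of untreated testis is among the 4. Because the fly lines differ in more than the driver, line and tumor type cannot be told apart, and ages are not given. The labels do not say whether the libraries of a tumor type came from separate pools of testes, so p-values measure the spread between these libraries, which may be technical. CySC-like cells numbered 1682 and 3157 in the Nanos-Upd libraries and 1885 and 1537 in the TrafficJam-Upd libraries.

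Cyst stem cells are the somatic stem cells of the fly testis. They sit beside the germline stem cells around the hub, a cluster of somatic cells that secretes Unpaired, and their daughters become the cyst cells that wrap and support developing germ cells. Unpaired binds the receptor Domeless, which activates the kinase Hopscotch and the transcription factor Stat92E, and targets such as zfh1 and chinmo keep cyst stem cells from differentiating. Hedgehog, EGFR and other pathways also act in these cells.

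Unique molecular identifiers (UMIs) of the CySC-like cells were summed within each library, which gave sums of 6126256 and 10782448 for Nanos-Upd and of 6675470 and 5059676 for TrafficJam-Upd. Levels are UMIs per 1e6 of such a sum (CPM), and a gene was called where edgeR's quasi-likelihood test, with libraries as replicates, gave an adjusted p under 0.05 over all genes. Fold changes are on the log2 scale, CySC-like over the other label, with the standard error (SE). Because the authors assigned the labels on these same cells, by a method not given in the sources used here, a call between labels describes how steady a difference was over 4 libraries and is no independent evidence of it. The annotated genome build was dm6 per the submitters' processing notes, and gene positions come from Ensembl release 115 (BDGP6.54). The library Nanos-Upd replicate 2 stood apart: the summed level of the 6 CySC-like markers was highest there in all 4 other labels, and its part in the results was not tested beyond leaving that library out. Markers of both lineages, at least 2 of the early germline with at least 2 of early cyst cells, were detected in 25.1% and 34.7% of the Nanos-Upd CySC-like cells and in 16.1% and 21.7% of the TrafficJam-Upd ones. Across the libraries, 35 barcodes occurred more than once (70 cells, of which 29 were CySC-like). Scaling mattered for small differences: with total UMIs in place of TMM factors (edgeR's trimmed mean scaling) the median of all genes moved by -0.32 against GSC-like, -0.15 against spermatocyte, 0.09 against somatic and 0.19 against muscle cells, and by 0.16 between tumor types.

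The 6 markers against which the label was checked were all called higher in the class than in GSC-like, spermatocyte and muscle cells, and 4 of them (tj, Wnt4, CadN and kon) also higher than in somatic cells. Of all genes tested, 37.4%, 34.4%, 13.2% and 10.1% were called higher against GSC-like, spermatocyte, muscle and somatic cells. tj encodes the large Maf transcription factor Traffic jam (FBgn0000964, arm 2L, 19464267 to 19467758). It had 676 and 628 CPM in the Nanos-Upd and 414 and 400.0 CPM in the TrafficJam-Upd libraries, against means of 112 CPM in somatic, 93.9 CPM in muscle, 43.9 CPM in spermatocyte and 19.1 CPM in GSC-like cells. Every CySC-like library lay above every sum of the other labels for tj, and the log2 fold change was 5.15 ± 0.38 against GSC-like and 2.17 ± 0.15 (SE) against somatic cells. Wnt4, a secreted Wnt ligand (FBgn0010453, arm 2L, 7255419 to 7277171), had 1355 and 1329.6 CPM in the Nanos-Upd and 894 and 879.5 CPM in the TrafficJam-Upd libraries, against means of 152 CPM in somatic and 41.5 CPM in GSC-like cells. CadN, which encodes N-cadherin (FBgn0015609, arm 2L, 17647053 to 17778340), had 982 and 1103 CPM in the Nanos-Upd and 717 and 522 CPM in the TrafficJam-Upd libraries, against means of 361 CPM in muscle and 279.7 CPM in somatic cells. kon (kon-tiki), which encodes a transmembrane protein known for its part in muscle attachment, had 140.3 to 277 CPM, against a highest mean of 59.0 CPM among the other labels, in muscle cells. The CySC-like libraries of Wnt4 and kon lay above every other sum, and that of CadN in TrafficJam-Upd replicate 2 lay within the range of somatic and muscle sums.

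The other markers were shared with somatic cells. Egfr, the EGF receptor (FBgn0003731, arm 2R, 21522420 to 21559977), had 211 to 359 CPM in CySC-like cells and 208 to 343 CPM in somatic cells, with overlapping libraries and a log2 fold change of -0.03 ± 0.14 (SE; edgeR adjusted p = 0.928). zfh1, a zinc finger and homeodomain repressor that marks cyst stem cells and their early daughters (FBgn0004606, arm 3R, 30765926 to 30789202), was lower than in somatic cells, with 247 to 417 CPM in CySC-like cells against 429.8 to 583 CPM in somatic cells and a log2 fold change of -0.68 ± 0.12 (SE). That call was lost when all 20 sums entered 1 fit (edgeR adjusted p = 0.104). Both genes were above all GSC-like, spermatocyte and muscle means. The 6 markers together reached 3904 and 4114 CPM in the Nanos-Upd and 2711 and 2400 CPM in the TrafficJam-Upd libraries of CySC-like cells, against 1054 to 1913 CPM in somatic, 456 to 1639 CPM in muscle, 230.4 to 666 CPM in spermatocyte and 134 to 326 CPM in GSC-like cells. The muscle calls of tj and zfh1 were lost when TrafficJam-Upd replicate 2 was left out (edgeR adjusted p = 0.118 and 0.0778), and the somatic call of CadN with the replicate number as a block in place of the library (0.0504).

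**Figure D1:**
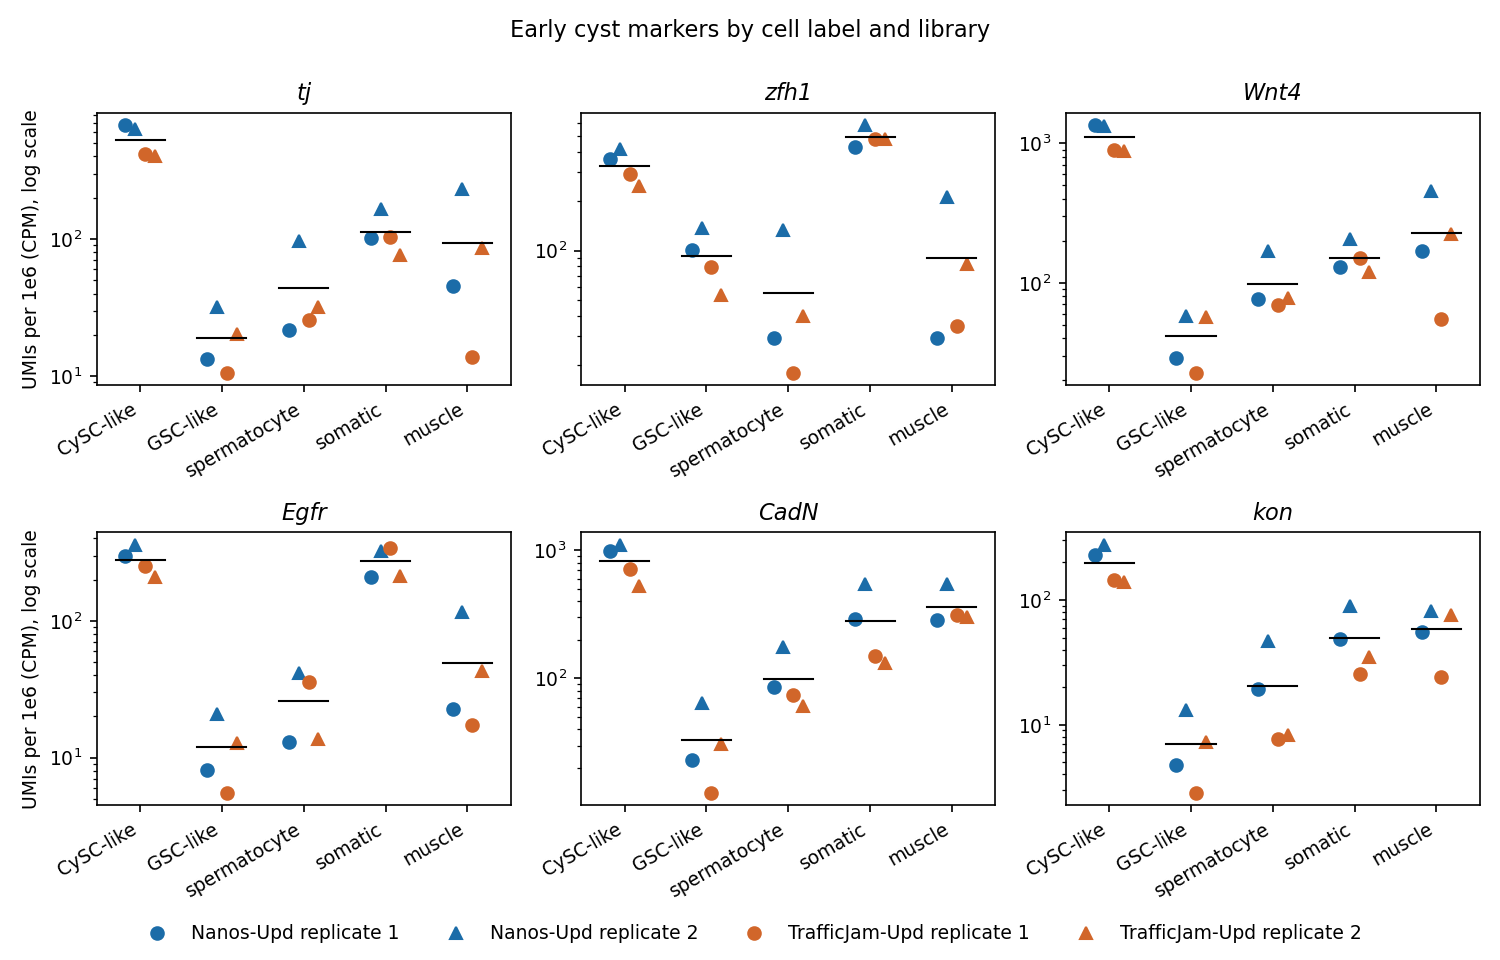
Levels of the 6 markers of the CySC-like class in each library and label, in CPM on a log10 axis, with 1 point per library and a line at the mean of the 4 libraries. CySC-like points lie at 400.0 to 676 CPM for tj, above every other point, whereas those for zfh1 and Egfr share their range with somatic cells or lie under it.

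Most single cells of the class carried several of these transcripts. To compare cells of different depth, each cell was thinned to 2200 UMIs, the smallest total in the files, so that no cell was left out. At least 3 of the 6 markers were then detected in 83.8% and 87.0% of the Nanos-Upd CySC-like cells and in 65.1% and 64.7% of the TrafficJam-Upd ones. The share in GSC-like cells was 0.831% and 2.57% in the Nanos-Upd and 0.447% and 1.84% in the TrafficJam-Upd libraries. Somatic cells lay between, at 16.1 to 36.5%, with the highest share in Nanos-Upd replicate 2, as in muscle cells (31.0% there and 2.41 to 11.5% in the other libraries). Without thinning, the CySC-like shares were 93.1% and 94.5% for Nanos-Upd, against 82.2% and 78.3% for TrafficJam-Upd libraries. Cells with none of the 6 markers made up 0.713% and 0.317% of the Nanos-Upd and 2.12% and 2.80% of the TrafficJam-Upd CySC-like cells after thinning. For tj alone, a UMI was found in 72.4% and 73.4% of thinned Nanos-Upd CySC-like cells and in 55.0% and 55.5% of thinned TrafficJam-Upd ones, against 2.95 to 6.77% of GSC-like cells, whose median depths before thinning were 3531 to 5014 UMIs against 2868 to 3323 UMIs in CySC-like cells. zfh1 was not lacking in GSC-like cells, with a UMI in 10.7 to 25.3% of them after thinning, against 39.4 to 54.2% of CySC-like cells, whereas the other 5 markers were found in 0.706 to 11.8% of thinned GSC-like cells.

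**Figure D2:**
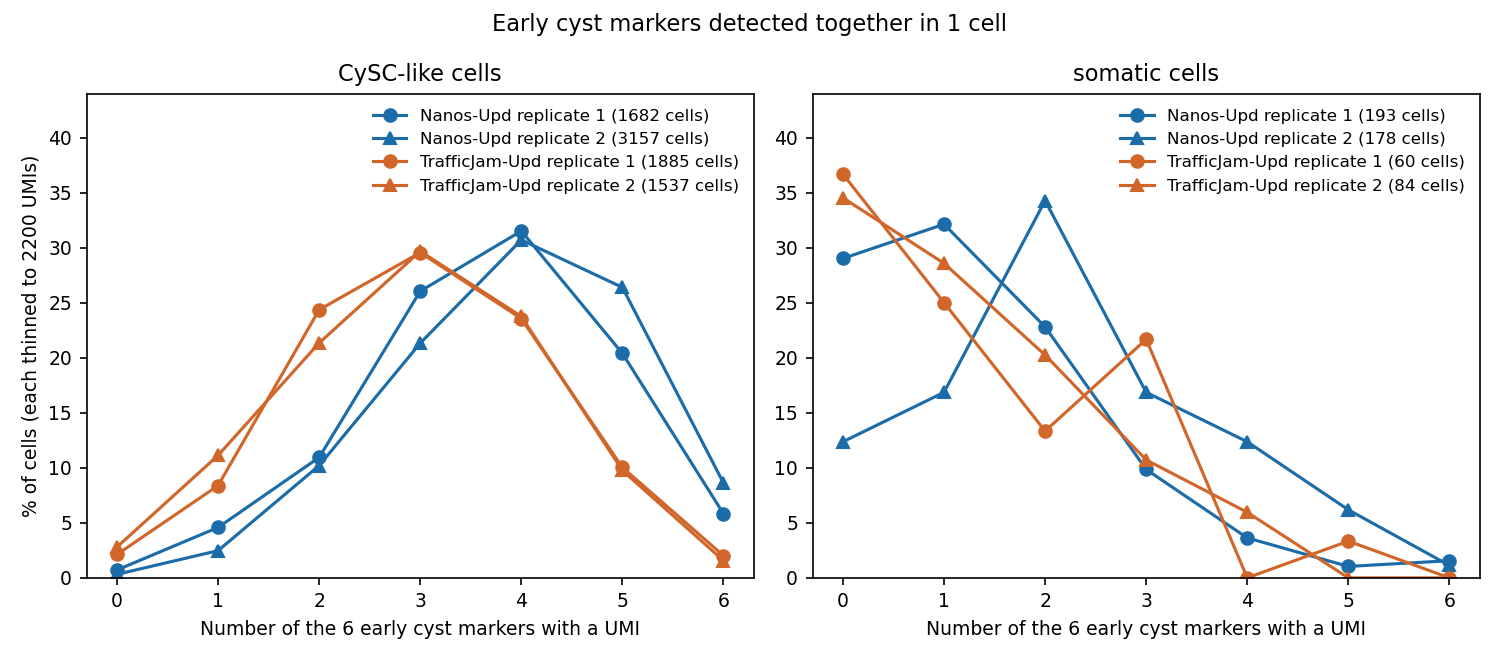
Share of CySC-like and of somatic cells, in percent, by the number of the 6 markers detected after thinning to 2200 UMIs per cell, for each library. In CySC-like cells the distributions of the Nanos-Upd libraries have their median at 4 markers and those of the TrafficJam-Upd libraries at 3 markers, and in somatic cells the medians are 1 or 2 markers.

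Both genes that mark stages of the cyst lineage were compared within the class. eya encodes Eyes absent, a transcriptional cofactor known from differentiating cyst cells (FBgn0000320, arm 2L, 6527447 to 6546976). It had 38.2 and 35.0 CPM in the Nanos-Upd and 31.6 and 23.3 CPM in the TrafficJam-Upd libraries of CySC-like cells, against 90.1 ± 26.1 CPM in somatic cells (SD, n = 4), with a log2 fold change of -1.51 ± 0.22 (SE). After thinning, eya and zfh1 were detected together in 3.75% and 3.77% of Nanos-Upd CySC-like cells and in 2.76% and 2.02% of TrafficJam-Upd ones. zfh1 without eya was detected in 45.5% and 50.5% of the Nanos-Upd cells and in 38.5% and 37.4% of the TrafficJam-Upd cells. Most CySC-like cells with a UMI of eya or zfh1 thus had one of zfh1 alone, at a depth where a transcript can be missed. so, which encodes the Eyes absent partner Sine oculis, averaged 45.0 CPM in CySC-like and 30.2 CPM in somatic cells and was not called between them (edgeR adjusted p = 0.178).

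A wider set of genes was higher in CySC-like cells than in each of the other labels. Of 7213 genes tested in all 4 comparisons, 292 (4.05%) were called higher in every one, and 26 (0.36%) were called lower in every one. Of the 292, the level in 254 exceeded that of all other labels in each of the 4 libraries, and 219 of these averaged at least 50 CPM. The 20 of these with the largest smallest fold change are named here. They were lin-28, Oseg5, Hesr, wnd, Slc45-1, bnb, CG43886, Wnt4, Tsp66E, Him, Npc2f, CG31676, E(spl)m3-HLH, tj, CG7194, Vago, wrapper, CG42524, CG42489 and metro, with smallest log2 fold changes between 2.94 (lin-28) and 1.79 (metro). The number called in every comparison was 202 to 252 when 1 library was left out, 178 with no library block and 160 with the replicate number as a block. Without cells that held markers of both lineages it was 287, of which 273 were among the 292.

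lin-28, which had the largest smallest fold change of the set, encodes an RNA-binding protein known to block maturation of the let-7 microRNA (FBgn0035626, arm 3L, 5654681 to 5657384). It had 175 and 137 CPM in the Nanos-Upd and 149 and 169 CPM in the TrafficJam-Upd libraries of CySC-like cells, against means of 19.0 CPM in somatic, 18.0 CPM in muscle, 16.1 CPM in spermatocyte and 6.52 CPM in GSC-like cells. No CySC-like library of lin-28 overlapped any sum of the other labels, and Nanos-Upd and TrafficJam-Upd libraries overlapped each other. Hesr, a bHLH repressor of the Hairy and Enhancer of split type (FBgn0030899, chromosome X, 18204403 to 18205144), had 254 and 276 CPM in the Nanos-Upd and 249 and 249.6 CPM in the TrafficJam-Upd libraries, against a highest mean of 43.0 CPM, in somatic cells. Its neighbour Him, which encodes an inhibitor of the muscle factor Mef2 (FBgn0030900, chromosome X, 18209427 to 18210741), had 78.6 to 89.3 CPM in CySC-like cells. E(spl)m3-HLH, a repressor induced by Notch in many tissues, had 88.9 to 93.9 CPM in CySC-like cells, against means of 10.1 CPM in somatic and 4.59 CPM in GSC-like cells. None of these 4 genes was called between the tumor types within the class.

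Among the other named genes of the set, wnd encodes the kinase Wallenda, of the DLK family, and had 188 to 216 CPM in CySC-like cells, against means of 33.1 CPM in somatic and 32.7 CPM in muscle cells. metro, which encodes a MAGUK scaffold protein known from the neuromuscular junction, had 496 to 565 CPM in CySC-like and a mean of 149 CPM in somatic cells. wrapper, an immunoglobulin superfamily protein known from midline glia, averaged 73.4 ± 14.8 CPM in CySC-like and 10.8 ± 10.4 CPM in somatic cells (SD, n = 4 each). bnb (bangles and beads) had 1469 and 1561 CPM in the Nanos-Upd and 1262 and 996 CPM in the TrafficJam-Upd libraries, against means of 249 CPM in somatic and 83.1 CPM in GSC-like cells. Its call against muscle cells was lost when TrafficJam-Upd replicate 1 or 2 was left out (edgeR adjusted p = 0.151 and 0.0944). Vago, which encodes a secreted protein of the antiviral response, and Npc2f, of the sterol-binding NPC2 family, averaged 135 ± 44.1 and 116 ± 17.7 CPM in CySC-like cells, against 31.3 ± 17.3 and 20.5 ± 9.78 CPM in somatic cells (SD, n = 4 each). The CG-numbered genes have no role given here, and CG31676 had 1258 to 1491 CPM in CySC-like cells against a highest mean of 285 CPM, in muscle cells.

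**Figure D3:**
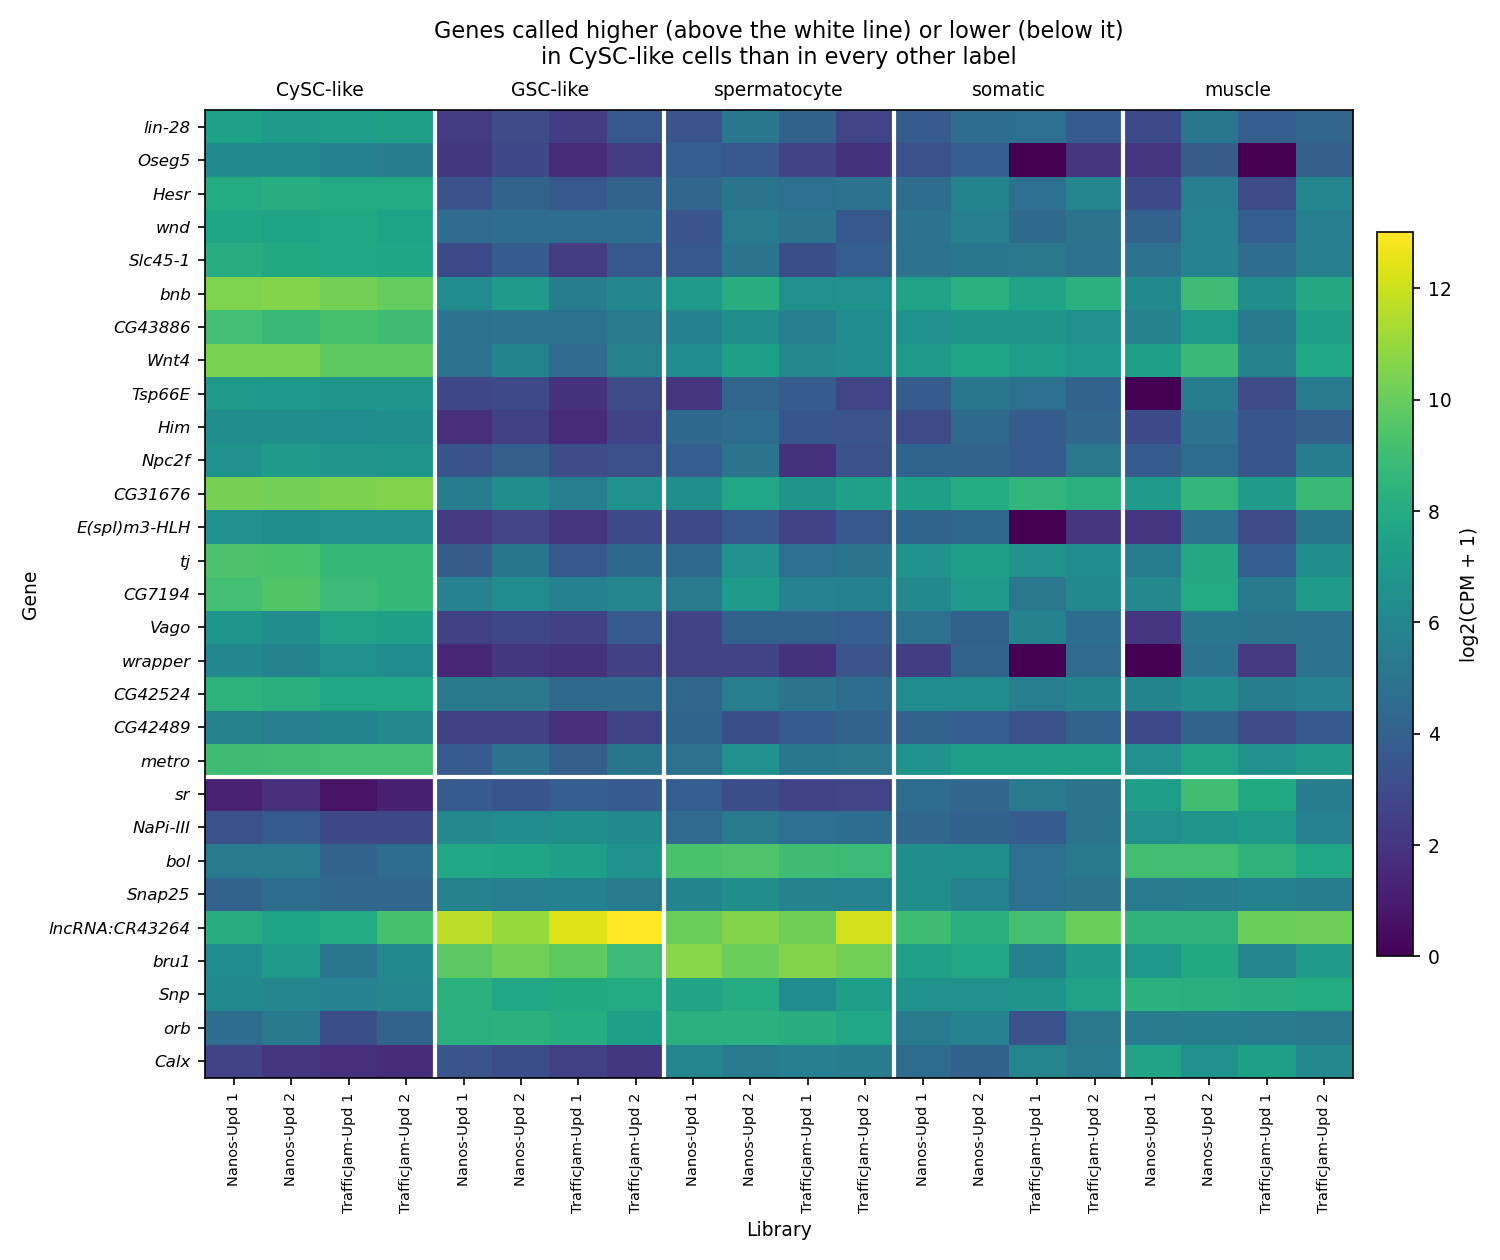
Levels of the 20 named genes called higher (above the white line) and of 9 called lower (below it) in CySC-like cells than in all 4 other labels, as log2(CPM + 1) on a colour scale, with 1 column per library within each label and 1 row per gene. The upper rows are brightest in the CySC-like columns within each library, as the naming rule demands, with lin-28 there at 137 to 175 CPM.

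Few genes were called lower in this class than in every other label. sr, which encodes the tendon cell factor Stripe (FBgn0003499, arm 3R, 18090803 to 18135583), had 1.31, 2.32, 0.599 and 1.19 CPM in the CySC-like sums of the 4 libraries, against means of 239.6 CPM in muscle, 28.3 CPM in somatic, 8.13 CPM in spermatocyte and 12.2 CPM in GSC-like cells. The long noncoding RNA CR43264 averaged 326 ± 182 CPM in CySC-like and 4783 ± 2702 CPM in GSC-like cells (SD, n = 4 each), and the RNA-binding proteins encoded by bol, bru1 and orb were also called lower in all 4 comparisons. bol, known for its part in meiotic entry of spermatocytes, averaged 30.5 CPM in CySC-like cells, against 59.1 CPM in somatic and 570.5 CPM in spermatocyte cells. The list of 26 held 15 to 19 genes when 1 library was left out. It held 9 with equal numbers of cells in both labels of each comparison, of which 7 were among the 26. In that setting 3150 genes were tested in all 4 comparisons, against 7213. The calls of bol, bru1 and orb against somatic cells were lost with no library block (edgeR adjusted p = 0.0640, 0.193 and 0.275), those of bru1 and orb against muscle cells too (0.114 and 0.0966), and that of orb also without Nanos-Upd replicate 1 (0.137), Nanos-Upd replicate 2 (0.0588) or TrafficJam-Upd replicate 2 (0.108). lncRNA:CR43264 lost its somatic and muscle calls with no library block (0.243 and 0.0828) and its muscle call without TrafficJam-Upd replicate 2 (0.0611), each an edgeR adjusted p, and the muscle call of orb was lost without TrafficJam-Upd replicate 1 (0.0635).

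Against the germline, the class differed in most genes. Of 8909 genes tested against GSC-like cells, 72.6% were called, 3336 higher (37.4%) and 3128 lower (35.1%), and 1529 and 1066 of these by more than 2-fold. With total UMIs in place of TMM factors the split was 2213 higher and 4291 lower, so the side of a small difference depended on the scaling. The genes with the largest differences among those of at least 50 CPM were CG34398 (5.34), rau (5.17) and kon (5.16) on the higher side and lncRNA:CR46148 (-4.08), CG32816 (-3.71) and lncRNA:CR46216 (-3.64) on the lower side. Against the spermatocyte label, in which 13 markers of the later spermatids summed to 13644 to 31738 CPM, 68.5% of 8998 genes were called, 3097 higher (34.4%) and 3070 lower (34.1%; 2613 and 3213 with totals). CG12290 (4.92 ± 0.31 SE), the Toll family receptor gene 18w (4.22 ± 0.32) and Slc45-1 (4.14 ± 0.32) led the higher side there. The lower side was led by Z600 (-6.60), soti (-6.37), which encodes a caspase regulator of spermatids, and CG31294 (-6.28), genes at 1.66, 7.36 and 3.89 CPM in CySC-like cells and 179, 573 and 291 CPM in spermatocyte cells on average.

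Fewer genes separated the class from the other somatic labels. Against somatic cells 24.9% of 7838 genes were called, 788 higher (10.1%) and 1160 lower (14.8%; 1035 and 1033 with total UMIs). More than 2-fold differences were called for 229 higher and 776 lower genes. lin-28 (2.98 ± 0.23 SE), Eip78C (2.90 ± 0.21), a nuclear receptor induced by ecdysone, and Slc45-1 (2.83 ± 0.17) led the higher side. The genes with the largest difference on the lower side were CG7443, CG10311 and Prip, an aquaporin gene, with 0 to 0.300, 0 to 1.47 and 0.449 to 1.76 CPM in CySC-like and means of 102, 105 and 143 CPM in somatic cells. Against muscle cells 28.2% of 7526 genes were called, 996 higher (13.2%) and 1126 lower (15.0%; 1533 and 925 with total UMIs). Mes2 (3.27 ± 0.31 SE), olf186-M (3.06 ± 0.37) and wake (3.01 ± 0.35) led the higher side, and Dpp10, PK2-R2 and Ktl the lower side, with 0.150 to 1.02, 0 to 0.150 and 0 to 0.198 CPM in CySC-like and means of 1602, 161 and 290.2 CPM in muscle cells. The somatic and muscle sums rested on 60 to 193 and on 78 to 84 cells a library, and whether the lower shares of called genes reflect smaller differences was not tested.

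By level, the class had its highest correlation with somatic cells in each library, with muscle cells close behind in TrafficJam-Upd replicate 2. Across 7213 genes, Pearson's r of log2(CPM + 1) between CySC-like and somatic sums was 0.879 and 0.907 in the Nanos-Upd and 0.822 and 0.848 in the TrafficJam-Upd libraries. The r with muscle cells was 0.781 and 0.840 for Nanos-Upd, and 0.773 and 0.841 for TrafficJam-Upd. The r with GSC-like cells was 0.759 and 0.817 for Nanos-Upd, and 0.747 and 0.811 for TrafficJam-Upd. Between CySC-like sums of different libraries it ran from 0.953 to 0.987. These are descriptions across genes, which are not independent replicates, and the sums of a library share its depth and any free RNA.

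Genes of the JAK-STAT pathway were described first among the signalling lists, because Upd is its ligand. Of 14 genes tested against GSC-like cells 7 were called higher and 3 lower, against 37.4% and 35.1% of all genes tested, with a median log2 fold change of 0.45 against 0.06 over all genes. The receptor gene dome (FBgn0043903, chromosome X, 19676061 to 19683518) had 117 and 117 CPM in the Nanos-Upd and 118 and 122 CPM in the TrafficJam-Upd libraries, and a mean of 156 CPM in somatic and 78.5 CPM in GSC-like cells. It was called higher than in GSC-like (0.91) and lower than in somatic cells (-0.46). Socs36E, a feedback inhibitor and target of the pathway (FBgn0041184, arm 2L, 18138675 to 18152417), had 1164 and 1156 CPM in the Nanos-Upd and 1158 and 1015 CPM in the TrafficJam-Upd libraries, against means of 731 CPM in somatic and 91.3 CPM in GSC-like cells. chinmo, which encodes a BTB zinc finger protein that maintains cyst stem cells (FBgn0086758, arm 2L, 1651258 to 1704682), had 1004 and 1192 CPM in the Nanos-Upd and 938 and 796 CPM in the TrafficJam-Upd libraries, and means of 707 CPM in GSC-like, 507 CPM in spermatocyte, 295 CPM in somatic and 249 CPM in muscle cells. Socs36E, chinmo and apt were called higher than in all 4 other labels, with log2 fold changes against somatic cells of 0.54 ± 0.10, 1.69 ± 0.14 and 0.38 ± 0.13 (SE). The muscle call of Socs36E was lost without Nanos-Upd replicate 1 or 2 (edgeR adjusted p = 0.235 and 0.125). The somatic call of apt, which encodes a transcription factor that dampens the pathway, was lost without Nanos-Upd replicate 1 (0.263) and in either fit lacking a TrafficJam-Upd library (0.0595 and 0.0515). Stat92E, the transcription factor of the pathway, averaged 554 CPM in CySC-like, 342 CPM in somatic and 226 CPM in GSC-like cells.

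The Wnt ligand genes wg, Wnt4 and Wnt6 were called higher in the class than in every other label, and the ligand genes Wnt2 and Wnt5 were called higher than in 3 labels but not than in somatic cells (log2 fold changes of 0.44 and 0.68, edgeR adjusted p = 0.400 and 0.0659). Wnt6 (FBgn0031902, arm 2L, 7333714 to 7352542) had 305 and 327 CPM in the Nanos-Upd and 396 and 394 CPM in the TrafficJam-Upd libraries, against a highest mean of 107 CPM in muscle cells. wg, which encodes the ligand Wingless, had 33.8 to 45.2 CPM, against a highest mean of 9.34 CPM in muscle cells. otk, which encodes the Wnt co-receptor Off-track, was also called higher than in all 4 labels, and its muscle call was lost without Nanos-Upd replicate 1 or 2 (edgeR adjusted p = 0.0961 and 0.0873). The receptor and co-receptor genes fz2 and arr were called lower than in somatic cells (-2.06 and -0.80) and lower than in muscle cells (-1.48 and -1.82). Of 23 Wnt pathway genes tested against somatic cells 6 were higher and 8 lower, against 10.1% and 14.8% of all genes, with a median of 0.12 against 0.02 over all genes. Against GSC-like cells 20 of 22 were higher and 1 was lower (median 0.92), against 37.4% and 35.1% of all genes.

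EGFR pathway genes were next. kek1, an EGFR inhibitor and target (FBgn0015399, arm 2L, 12817000 to 12822787), had 746 and 738 CPM in the Nanos-Upd and 631 and 577 CPM in the TrafficJam-Upd libraries, against a highest mean of 278 CPM in somatic cells. Its CySC-like levels did not overlap those of any other label. The adaptor gene drk averaged 350.4 ± 19.9 CPM in CySC-like and 286 ± 41.5 CPM in GSC-like cells (SD, n = 4 each), and both kek1 and drk were called higher in all 4 comparisons. Of 21 EGFR pathway genes tested against somatic cells 6 were higher (spi, vn, aos, kek1, drk and sty) and 3 were lower (Krn, aop and edl), with a median of 0.17. Over all genes 10.1% were higher and 14.8% lower there. spi and vn encode ligands and aos and sty inhibitors. The call of sty was lost with no library block (edgeR adjusted p = 0.378), and that of edl without Nanos-Upd replicate 1 (0.0877) or TrafficJam-Upd replicate 2 (0.0685). Against GSC-like cells 14 of 23 were higher and 5 were lower (median 0.62), against 37.4% and 35.1% of all genes.

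Of the Notch genes, the glycosyltransferase gene fng and the ligase gene neur were called higher in all 4 comparisons together with E(spl)m3-HLH. The receptor gene N ranged over 149 to 244 CPM in CySC-like cells, 146 to 277 CPM in somatic cells and 57.9 to 113 CPM in GSC-like cells. The ligand gene Dl was low in the class, with 2.57 to 5.56 CPM, and was called lower than in somatic cells (mean 16.7 CPM, log2 fold change -2.42 ± 0.44 SE). For neur the CPM went the other way from the call, 132 CPM in CySC-like and 141 CPM in GSC-like cells, so its log2 fold change of 0.22 (edgeR adjusted p = 0.0374) rested on the TMM scaling. Of 13 Notch genes tested against somatic cells 4 were higher and 1 was lower (median 0.19), against 10.1% and 14.8% of all genes. The somatic call of fng was lost without Nanos-Upd replicate 1 (edgeR adjusted p = 0.0524) and its muscle call without TrafficJam-Upd replicate 2 (0.164).

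Most BMP genes called against somatic cells were lower in the class, and magu was higher. Hedgehog genes were called there at about the share of all genes. magu, which encodes a secreted BMP modulator of the SMOC family (FBgn0262169, arm 2R, 10052541 to 10063712), had 786 and 797 CPM in the Nanos-Upd and 1009.5 and 946 CPM in the TrafficJam-Upd libraries, against means of 349 CPM in muscle, 229 CPM in somatic and 45.7 CPM in GSC-like cells. It was the only one of 19 BMP genes called higher than in somatic cells, against 10.1% of all genes. Lower than in somatic cells were 7, dpp, gbb, Dad, dally, sog, cv-2 and tok, against 14.8% of all genes, with a median of -0.01 over the list. The call of tok was lost without Nanos-Upd replicate 1 (edgeR adjusted p = 0.0669). dally, a glypican that binds BMPs, averaged 151 CPM in CySC-like and 575 CPM in somatic cells (-1.99 ± 0.13 SE). The Hedgehog ligand gene hh had 1.11 to 2.45 CPM in CySC-like cells against 9.20 to 111 CPM in somatic cells. The Hedgehog receptor gene ptc averaged 58.5 CPM in CySC-like, 39.5 CPM in somatic and 9.13 CPM in GSC-like cells, and was called higher than in GSC-like cells (3.02 ± 0.12 SE). Of 13 Hedgehog genes tested against GSC-like cells 8 were higher and 3 lower (median 0.51), against 37.4% and 35.1% of all genes. Of 12 tested against somatic cells 3 were called, all lower (hh, boi and shf), where 24.9% of all genes were called and 14.8% were lower.

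Several growth factor genes were called higher in the class than in every other label. Pvf1, a ligand of the Pvr receptor (FBgn0030964, chromosome X, 18832682 to 18842901), had 249 and 209 CPM in the Nanos-Upd and 233 and 195 CPM in the TrafficJam-Upd libraries, against a highest mean of 77.4 CPM in somatic cells. Ilp6, an insulin-like peptide gene (FBgn0044047, chromosome X, 2331493 to 2334658), had 129 and 109 CPM in the Nanos-Upd and 115 and 128 CPM in the TrafficJam-Upd libraries, against a highest mean of 53.4 CPM in somatic cells. ImpL2, which encodes a secreted protein that binds insulin-like peptides, had 638 to 1106 CPM in CySC-like cells and a mean of 266 CPM in somatic cells. InR, the insulin receptor gene, averaged 675 ± 80.8 CPM in CySC-like, 477 CPM in somatic, 402 CPM in muscle and 377 CPM in GSC-like cells. All 4 were called higher in every comparison, and the FGF receptor gene htl was called lower in every one, with 0.749 to 4.82 CPM in CySC-like cells against means of 271 CPM in muscle and 17.0 CPM in somatic cells. Of the 18 genes of the FGF, Pvr and insulin list tested against somatic cells 8 were higher and 4 lower (median 0.40). Over all genes 10.1% were higher and 14.8% lower there. Of 18 tested against GSC-like cells 14 were higher and 2 lower (median 2.45), against 37.4% and 35.1% of all genes. The somatic call of ImpL2 was lost without Nanos-Upd replicate 2 or TrafficJam-Upd replicate 1 (edgeR adjusted p = 0.133 and 0.121), its muscle call without TrafficJam-Upd replicate 1 or 2 (0.202 and 0.153). The spermatocyte call of htl was lost without Nanos-Upd replicate 2 (0.154), TrafficJam-Upd replicate 1 (0.0791) or TrafficJam-Upd replicate 2 (0.0585).

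Guidance and hormone genes moved in both directions. Sema2a and unc-5, a ligand and a Netrin receptor gene of the axon guidance list, were called higher in all 4 comparisons, and the ligand gene NetB was called lower in all 4, with 1.80 to 5.47 CPM in CySC-like cells and a mean of 46.5 CPM in GSC-like cells. Cyp18a1, which encodes a cytochrome P450 that inactivates ecdysone, averaged 74.0 ± 27.6 CPM in CySC-like and 31.0 ± 19.4 CPM in somatic cells (SD, n = 4 each) and was called higher in all 4. Of 14 genes of the ecdysone list tested against somatic cells 3 were higher (Eip75B, Eip78C and Cyp18a1) and 5 were lower, among them the receptor gene EcR (-0.66 ± 0.15 SE), with a median of -0.22. Over all genes 10.1% were higher and 14.8% lower there. Against GSC-like cells 11 of 14 were higher and 3 lower (median 1.86), against 37.4% and 35.1% of all genes. The somatic call of Cyp18a1 was lost with no library block (edgeR adjusted p = 0.110), and the spermatocyte call of NetB without TrafficJam-Upd replicate 2 (0.0506).

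**Figure D4:**
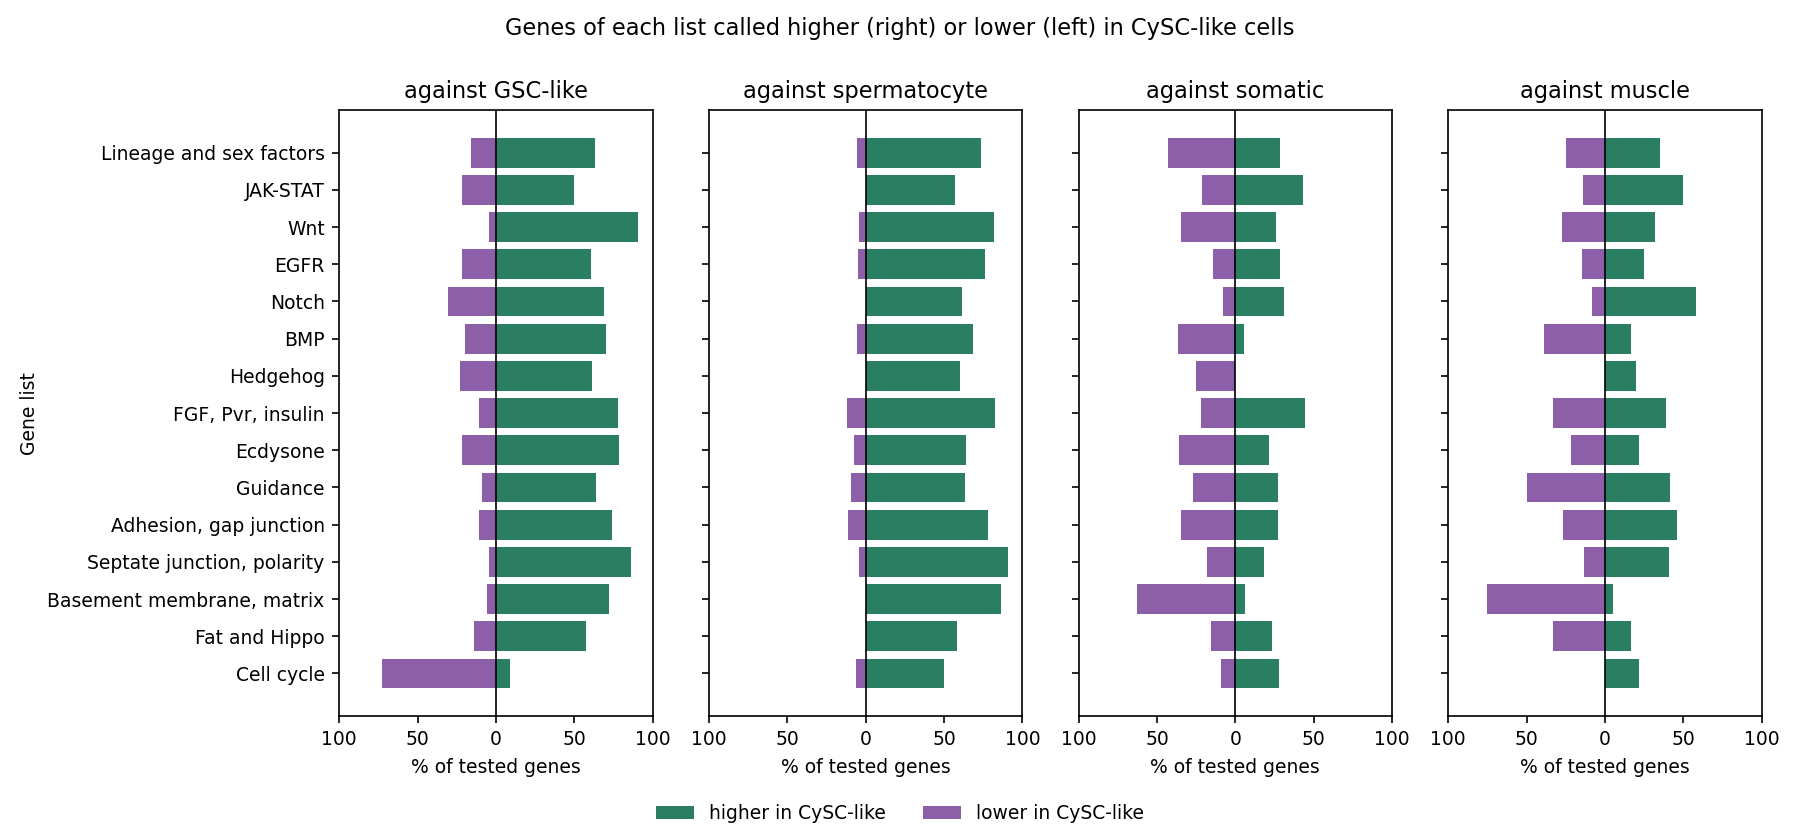
Share of the tested genes of each list, in percent, that were called higher (bars to the right) or lower (bars to the left) in CySC-like cells, with 1 panel for each of the other 4 labels. Against GSC-like cells 20 of 22 tested Wnt genes are higher (37.4% of all genes), and against somatic cells 10 of 16 tested basement membrane genes are lower (14.8% of all genes).

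Transcription factors of the cyst lineage separated the class from somatic cells in both directions. dsx, the doublesex gene of somatic sex determination (FBgn0000504, arm 3R, 7924323 to 7967408), had 475 and 517 CPM in the Nanos-Upd and 480.1 and 364 CPM in the TrafficJam-Upd libraries, against means of 237 CPM in somatic, 213 CPM in muscle and 19.5 CPM in GSC-like cells. tj, chinmo, dsx and bowl, an odd-skipped family gene, were called higher in all 4 comparisons. Of 21 factors tested against somatic cells 6 were higher and 9 lower, against 10.1% and 14.8% of all genes, with a median of -0.18. Those lower included Six4 and Sox100B, with means of 1.53 and 0.310 CPM in CySC-like and 33.1 and 16.4 CPM in somatic cells. ct (cut) and mamo averaged 45.9 and 67.8 CPM in CySC-like and 434 and 1505 CPM in somatic cells. The call of mamo was lost without Nanos-Upd replicate 1 or TrafficJam-Upd replicate 2 (edgeR adjusted p = 0.0752 and 0.0650).

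Adhesion and junction genes were mostly higher than in the germline. Fas2, an immunoglobulin superfamily adhesion gene (FBgn0000635, chromosome X, 4132887 to 4206093), had 1668 and 1745 CPM in the Nanos-Upd and 1506 and 1459 CPM in the TrafficJam-Upd libraries, against means of 883 CPM in somatic, 519.8 CPM in GSC-like and 477 CPM in muscle cells. CadN, Fas2, kon and the innexin genes Inx2, Inx3 and ogre, which encode gap junction proteins, were called higher in all 4 comparisons. Fas3, an adhesion gene known as a hub marker, averaged 54.9 CPM in CySC-like and 667 CPM in somatic cells (-3.85 ± 0.72 SE), a call that was lost without Nanos-Upd replicate 1 (edgeR adjusted p = 0.0877), Nanos-Upd replicate 2 (0.114) or TrafficJam-Upd replicate 2 (0.163). The somatic call of Inx3 was lost without Nanos-Upd replicate 1 (0.173) and in either fit lacking a TrafficJam-Upd library (0.0553 and 0.0621). Of 26 adhesion genes tested against somatic cells 7 were higher and 9 lower, against 10.1% and 14.8% of all genes. The integrin genes mys, mew, if and scb were among those lower, and the median of the list was -0.14. Against GSC-like cells 20 of 27 were higher and 3 lower (median 2.05), against 37.4% and 35.1% of all genes. Of the septate junction and polarity genes, crb, which encodes the apical protein Crumbs, had 244 to 312 CPM in CySC-like cells, against a highest mean of 156 CPM in somatic cells, and was called higher in all 4. Of 22 tested against GSC-like cells 19 were higher and 1 lower (median 1.51), against 37.4% and 35.1% of all genes. Of 22 tested against somatic cells 4 were higher and 4 lower (median -0.07), against 10.1% and 14.8% of all genes.

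Basement membrane genes were mostly lower in the class than in the somatic and muscle labels. Of 16 tested against somatic cells 10 were lower and 1 (LanA) was higher, against 14.8% and 10.1% of all genes, with a median of -1.06. The call of LanA was lost when TrafficJam-Upd replicate 1 or 2 was left out (edgeR adjusted p = 0.110 and 0.0572). Of 20 tested against muscle cells 15 were lower and 1 (Mmp1) was higher, against 15.0% and 13.2% of all genes, with a median of -1.93 against 0.07 over all genes. The collagen IV gene vkg (FBgn0016075, arm 2L, 5012144 to 5028191) had 0.593 to 4.73 CPM in CySC-like cells against 64.3 to 267 CPM in somatic cells. SPARC, a collagen-binding matrix protein gene, averaged 662 ± 50.6 CPM in CySC-like and 1282 ± 334 CPM in somatic cells (SD, n = 4 each; log2 fold change -1.01 ± 0.13 SE). Against GSC-like cells the list went up, with 13 of 18 higher and 1 lower (median 2.42), against 37.4% and 35.1% of all genes. Hemocytes also express collagen IV and SPARC, and the 6 hemocyte markers summed to 83.8 to 108 CPM in CySC-like, 121 to 531 CPM in somatic and 55.2 to 291 CPM in muscle cells, and their part was not tested.

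Cell cycle genes split by the label the class was set against. Of 33 tested against GSC-like cells 24 were lower and 3 higher, against 35.1% and 37.4% of all genes, with a median of -0.61. stg, which encodes the Cdc25 phosphatase that starts mitosis (FBgn0003525, arm 3R, 29251826 to 29255800), averaged 72.2 ± 11.0 CPM in CySC-like and 243 ± 32.1 CPM in GSC-like cells, and CycE, the cyclin of S phase entry, 43.1 ± 13.1 CPM in CySC-like and 133 ± 32.1 CPM in GSC-like cells (SD, n = 4 each). E2f1 was higher, with 303 to 399 CPM in CySC-like cells against 213 to 277 CPM in GSC-like ones, and CycD by 0.60 ± 0.10 (SE). Against somatic cells 9 of 32 were higher and 3 lower (median 0.46), against 10.1% and 14.8% of all genes. CycA, CycE, Cdk1 and polo were on the higher and dap, fzr and stg on the lower side. The somatic call of CycE was lost when any 1 library was left out (edgeR adjusted p = 0.0523 to 0.0924), and that of stg without Nanos-Upd replicate 1 (0.0559). Against muscle cells 7 of 32 were called, all higher (median 0.54), where 13.2% of all genes were higher and 15.0% lower. GSC-like cells held more UMIs per cell in 4 of 4 libraries, and the shares of each label in the cycle were not measured.

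Markers of other cells of the testis were low or shared. The 14 early germline markers summed to 327 and 501 CPM in the Nanos-Upd and 241 and 375 CPM in the TrafficJam-Upd libraries of CySC-like cells, against 2427 to 3481 CPM in GSC-like, 120.1 to 573 CPM in somatic and 214 to 735 CPM in muscle cells. The 13 muscle markers summed to 55.0 to 62.5 CPM in CySC-like cells, against 23127 to 41250 CPM in muscle cells and 53.2 to 70.5 CPM in GSC-like cells. The 13 spermatid markers summed to 1204 and 528 CPM in Nanos-Upd and 354 and 515 CPM in TrafficJam-Upd CySC-like cells. They summed to 254 to 944 CPM in GSC-like, 544 to 1452.5 CPM in somatic and 321 to 1162 CPM in muscle cells. In each of these labels the highest sum was that of Nanos-Upd replicate 1. The 5 hub markers summed to 80.6 to 115 CPM in CySC-like cells against 420 to 1077 CPM in somatic cells, and the 8 late cyst markers to 696 to 927 CPM in CySC-like cells against 462 to 748 CPM in somatic cells. The 5 terminal epithelium markers reached 4095 to 7873 CPM in CySC-like cells against 4784 to 7268 CPM in somatic cells, nearly all of it from MtnA, a metallothionein gene that many cells express, with 4099.7 and 4073 CPM in the Nanos-Upd and 6402 and 7849.5 CPM in the TrafficJam-Upd libraries of CySC-like cells. The part of these transcripts in the results was not tested.

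Per cell, the CySC-like label had fewer UMIs than the GSC-like label in 4 of 4 libraries, with a mean difference of medians of -1252 ± 567 UMIs (SD, n = 4; two-sided exact sign-flip permutation test, p = 0.125, the smallest that 4 libraries allow, and 0.179 adjusted over 20 such tests). At 2200 UMIs the median cell had fewer detected genes than GSC-like cells (by 24.0 to 52.0 genes) and spermatocytes (by 142 to 210 genes) and more than somatic cells (by 29.5 to 88.5 genes) in every library, each with the same p. The median mitochondrial share of UMIs was higher in CySC-like cells than in every other label in 4 of 4 libraries. The mean difference was 0.815 percentage points against GSC-like, 1.43 against somatic, 1.54 against muscle and 2.19 against spermatocyte cells, each with p = 0.125 in the exact test (adjusted 0.179).

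Genes called higher in all 4 comparisons were spread over the large chromosome arms. They made up 63 of 1247 tested genes on X (5.05%), 59 of 1287 on 2L (4.58%), 59 of 1440 on 2R (4.10%), 52 of 1408 on 3L (3.69%) and 57 of 1734 on 3R (3.29%), against 4.05% overall. Hesr and Him lie next to each other on X, and wg, Wnt4 and Wnt6 share a region of arm 2L.

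The class was then compared between tumor types. CySC-like cells made up 36.4% (95% exact binomial interval 35.1 to 37.9%) and 34.7% (33.7 to 35.7%) of cells in the Nanos-Upd libraries and 58.2% (56.4 to 59.9%) and 41.9% (40.3 to 43.5%) in the TrafficJam-Upd libraries, where intervals cover counting error only. The difference of the means was -14.4 percentage points (two-sided exact permutation test, p = 0.333, the smallest that 2 against 2 libraries allow). Of 8701 genes tested within the class 2.84% were called, 137 higher (1.57%) and 110 lower (1.26%) in Nanos-Upd, and the split was 213 higher and 44 lower with total UMIs. All 247 called genes had no overlap between the tumor types, as did 60.5% of all genes tested. The count and the balance of directions both changed when 1 library was left out. There were 291 higher and 311 lower without Nanos-Upd replicate 1 (602 in all), and 1083 higher and 181 lower without Nanos-Upd replicate 2 (1264). There were 102 higher and 168 lower without TrafficJam-Upd replicate 1 (270), and 73 higher and 38 lower without TrafficJam-Upd replicate 2 (111).

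The Nanos-Upd libraries were higher in genes of several kinds. Fas3 (FBgn0000636, arm 2L, 18320102 to 18393441) had 73.8 and 102 CPM in Nanos-Upd and 21.4 and 21.9 CPM in TrafficJam-Upd libraries, a log2 fold change of 1.87 ± 0.17 (SE; edgeR adjusted p = 0.000888). Cbs, which encodes cystathionine beta-synthase, had 166 and 164 CPM in Nanos-Upd and 46.4 and 42.9 CPM in TrafficJam-Upd libraries (1.73 ± 0.13 SE). bond, a fatty acid elongase gene, had 98.9 and 97.8 CPM in Nanos-Upd and 26.7 and 28.7 CPM in TrafficJam-Upd libraries (1.68 ± 0.14 SE). The chaperone gene Hsp68 and the Wnt receptor gene fz followed, with log2 fold changes of 1.24 ± 0.16 and 1.19 ± 0.13 (SE). In each of these 5 genes both Nanos-Upd libraries lay above both TrafficJam-Upd libraries, as the naming rule demands.

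Genes lower in Nanos-Upd were led by w, the white gene of eye pigment transport, whose mini-gene form also marks many transgene insertions. It had 14.5 and 21.4 CPM in Nanos-Upd and 428 and 307 CPM in TrafficJam-Upd libraries (-4.48 ± 0.21 SE, edgeR adjusted p = 5.08e-05), and the part of the insertions was not tested. veil, a gene of the 5'-nucleotidase family, had 20.7 and 23.6 CPM in Nanos-Upd and 126 and 105 CPM in TrafficJam-Upd libraries (-2.53 ± 0.15 SE). RpS14b, which encodes a small ribosomal subunit protein and has a near-identical neighbour, RpS14a, so that reads may be split between them, had 260.2 and 260.1 CPM in Nanos-Upd and 686 and 883 CPM in TrafficJam-Upd libraries (-1.75 ± 0.15 SE). CG1894 had 17.3 and 14.8 CPM in Nanos-Upd and 67.0 and 124 CPM in TrafficJam-Upd libraries, and MYPT-75D 108 and 123 CPM in Nanos-Upd and 282 and 245 CPM in TrafficJam-Upd libraries. The call of CG1894 was lost without Nanos-Upd replicate 1 or 2 (edgeR adjusted p = 0.0946 and 0.0793). MtnA was also lower (-0.96 ± 0.13 SE), with no overlap between the types.

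**Figure D5:**
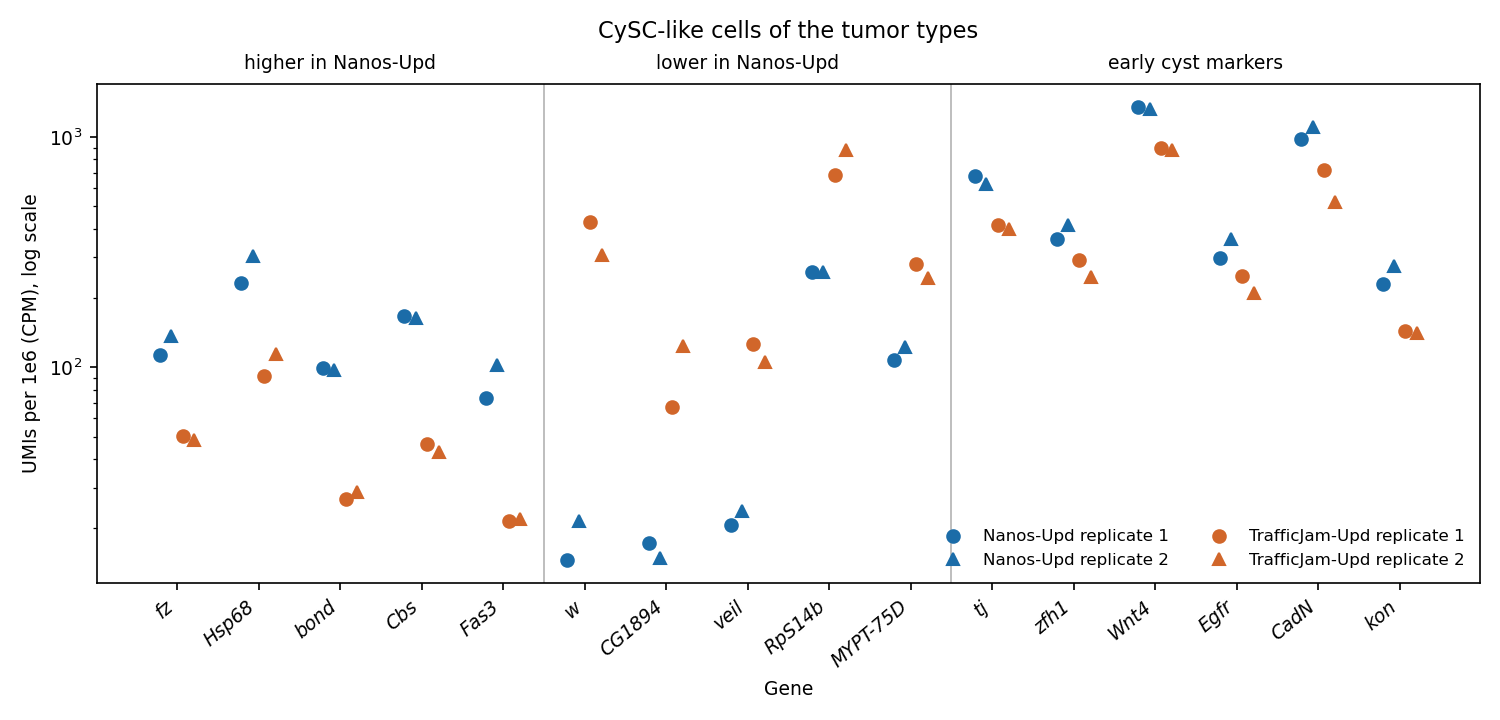
Levels in CySC-like cells, in CPM on a log10 axis, of the named genes that differ between Nanos-Upd and TrafficJam-Upd tumors and of the 6 markers, with 1 point per library. For w the Nanos-Upd points lie at 14.5 and 21.4 CPM and the TrafficJam-Upd points at 428 and 307 CPM. For all 6 markers the Nanos-Upd points lie above the TrafficJam-Upd points, where 60.5% of all genes tested have no overlap, in either direction. CPM use total UMIs, with which the median log2 fold change of all genes is 0.18 towards Nanos-Upd.

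Several lists held called genes between the tumor types. In CPM, both Nanos-Upd libraries lay above both TrafficJam-Upd libraries for all 6 markers, where 60.5% of all genes tested had no overlap, in either direction. The share of all genes that lay above in Nanos-Upd alone is not given here. CPM use total UMIs, with which the median log2 fold change of all genes was 0.18, against 0.02 with TMM factors. The scale itself thus leaned towards Nanos-Upd. Of the markers, tj (0.53 ± 0.12 SE, edgeR adjusted p = 0.0487) and kon (0.68 ± 0.12, 0.0244) passed the test. The calls of both were lost when TrafficJam-Upd replicate 1 (edgeR adjusted p = 0.104 and 0.0751) or replicate 2 (0.150 and 0.0891) was left out, and that of tj also when Nanos-Upd replicate 1 was (0.0932). zfh1, Egfr, Wnt4 and CadN had log2 fold changes of 0.37, 0.36, 0.45 and 0.60 and did not pass (edgeR adjusted p = 0.104, 0.121, 0.0578 and 0.0558). Against the 2.84% of all genes that were called, 1.57% of them higher, 4 of 22 EGFR pathway genes were called, all higher (vn, aos, sty and Mkp3), with sty at 0.94. Of 27 adhesion genes 4 were called, all higher (Fas3, kon, rst and mew). The Wnt receptor genes fz and fz3 were the ones of 23 Wnt genes that were called, both higher. Myc was higher by 1.02 ± 0.15 (SE), and in the Fat and Hippo list ds was higher (1.33 ± 0.20) and ft lower (-3.31 ± 0.28), with ft at 2.77 and 2.04 CPM in Nanos-Upd and 23.5 and 18.8 CPM in TrafficJam-Upd libraries. The TrafficJam-Upd tumors carry traffic Jam-GAL4 over UAS-Upd. In their CySC-like cells upd1 had 77.4 and 65.8 CPM, against 4.24 and 10.9 CPM in the Nanos-Upd libraries (-3.32 ± 0.37 SE). The call of upd1 was lost when TrafficJam-Upd replicate 1 or 2 was left out, and the part of the driver was not tested.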

How the data were processed

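Polyadenylated transcripts were captured with the 10x Genomics 3' kit version 3.1 from enzymatically dissociated testis tumors, per the labels. The authors deposited a table of raw UMI counts for 17558 features in 20618 cells and an annotation with each cell's library, label and percent of mitochondrial and ribosomal UMIs. The submitters' processing notes name Cell Ranger 7.0.0, Seurat 5.0.3 and the build dm6, without their roles. Deposited cells held 2200 to 7499 UMIs, so they had been filtered. How labels were assigned and whether doublets were removed is not given in the sources used here. No doublet caller was run; instead cells with at least 2 early germline and 2 early cyst markers were left out as an alternative. Levels rest on UMIs, intervals on numbers of cells, and intervals cover counting error only.

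Counts were summed per label and library and tested with edgeR 4.0.16 in R 4.3.3 (TMM, filterByExpr, robust quasi-likelihood fit, library as a block between labels, no block between tumor types), with Benjamini-Hochberg adjustment over all genes and a threshold of 0.05. Genes at low counts were removed by filterByExpr, so members of a list that were not tested are not counted. Standard errors were derived from the F statistic. An exact permutation test over libraries, two-sided, served for shares, and an exact sign-flip permutation test for per-cell medians. Python 3.11.15 (with scipy 1.17.1 and numpy 2.4.6) gave the other values. Positions were matched by FlyBase identifier for 17515 features. The fits were tested on simulated counts with known changes and recovered most of them, with the lowest share for the smaller change between tumor types. The simulated counts had the same dispersion for every gene, no library effect and few changed genes. They therefore cannot show how scaling or false calls behave where many genes differ, as between the labels here.

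The members, gene lists and named genes were chosen with earlier results of these data known. Named genes were the 6 markers, upd1 and H3-GFP, the 20 genes higher and up to 10 genes lower that were most different from all 4 labels, the 3 most different in each comparison and direction, up to 4 per list and direction, and the 5 most different between tumor types, among called genes with at least 50 CPM. Genes named between tumor types also had to have no overlap between the types. List members called in all 4 comparisons, and others given as examples, were added after their values were seen. Alternatives were DESeq2 1.42.0, RLE size factors, no filter, each library left out, no mixed cells, at least 3000 UMIs, thinning to 2200 UMIs, no or another block, equal numbers of cells and 1 fit of all 20 sums. Total UMIs in place of TMM factors, a crossed block and tests of the label difference between tumor types were added after the data were seen.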

Additional observations from a re-analysis of the deposited data

Results flagged for a closer look

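The difference between CySC-like cells and another label was tested for a difference between tumor types (edgeR interaction, adjusted p under 0.05, positive where the CySC-like excess was larger in Nanos-Upd). It passed for 103 of 8909 genes against GSC-like, 470 of 8998 against spermatocyte, 133 of 7838 against somatic and 2 of 7526 against muscle cells, and the named genes among them are given here.

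Against GSC-like cells the interaction on the log2 scale was 1.57 for Cbs and 1.20 for Fas3, and -7.86 for H3-GFP, -5.35 for w, -3.82 for ft, -1.92 for Pvf2, -1.48 for MYPT-75D and -1.24 for mav. Against spermatocytes it was 2.33 for r-cup, 1.42 for Mst84Dc, 1.33 for Mst84Da and 1.21 for Mst84Db, and -4.61 for upd1, -4.59 for H3-GFP and -4.28 for w. Against somatic cells it was 3.43 for shf, 2.21 for Fas3 and 0.98 for Oatp74D, and -2.93 for upd1, -2.81 for H3-GFP, -2.14 for w, -1.25 for ci, -1.21 for LanA, -1.20 for LanB2 and -1.16 for Amph. The difference in shf lay in the somatic cells, which had 11.5 and 13.8 CPM in Nanos-Upd and 77.2 and 63.3 CPM in TrafficJam-Upd libraries, whereas CySC-like cells had 1.78 to 5.19 CPM. Fas3 in somatic cells, with 378 and 849 CPM in Nanos-Upd and 969 and 472 CPM in TrafficJam-Upd libraries, overlapped between the types. Somatic sums rested on 60 to 193 cells, and r-cup and the Mst84D genes are transcripts of late spermatids, at 0.749 to 7.98 CPM for r-cup in CySC-like cells. Reads of the neighbouring Mst84D genes may be split between them.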

How the results depend on the processing

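Most named results held: of 737, 554 were called, and 436 of these stayed called with the same direction in every alternative, whereas 494 of 8216 alternative values missed the threshold and 2 changed sign (crq, -0.041, and Cdk4, -0.014, against GSC-like cells with total UMIs). Named genes other than the 6 markers, upd1 and H3-GFP were chosen among called genes, so these counts do not describe all calls. The number of genes called against GSC-like cells was 4305 with all 20 sums in 1 fit. Against somatic cells it was 1258 with the replicate number as a block and 1211 with equal cell numbers, and against muscle cells 1308 with equal cell numbers. Between tumor types it was 527 with DESeq2, 1494 with no filter, 525 without mixed cells (256 higher and 269 lower) and 111 to 1264 when 1 library was left out. With the replicate number as a block it was 163 (113 higher, 50 lower); same-numbered libraries deviated in opposite directions (r = -0.137 across 8701 genes), so the numbers are not shown to pair them. A crossed pairing gave 718 calls (361 higher, 357 lower). Genes higher than all 4 labels numbered 178 with no library block, 160 with the replicate block and 202 to 252 when 1 library was left out. Those lower numbered 15 thinned, 13 with no library block, 14 with the replicate block, 9 with equal cell numbers (3150 genes tested in place of 7213), 42 with all 20 sums and 15 to 19 when 1 library was left out. The difference in the share of CySC-like cells stayed negative (-22.6 to -6.31 points), and with at least 3000 UMIs the libraries overlapped (30.4 and 29.2% in Nanos-Upd, 48.8 and 29.8% in TrafficJam-Upd). Other causes were not tested. A fit that leaves out 1 library assumes that the lone library varies like the others.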

Other observations

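Genes of the Fat and Hippo growth control pathways were also compared between CySC-like cells and the other labels. Of 14 tested against GSC-like cells 8 were called higher and 2 lower, where 37.4% of all genes were higher and 35.1% lower. The 14 genes had their median at 0.43 on the log2 scale, where the median of all genes lay at 0.06. In the comparison with somatic cells 3 of 13 were higher (ds, ex and kibra) and 2 lower (Diap1 and Wbp2). There 10.1% of all genes were higher and 14.8% were lower. ds encodes the cadherin Dachsous, a ligand of Fat, and ex and kibra encode upstream activators of the pathway. ex had 114 and 141 CPM in the Nanos-Upd and 108 and 89.1 CPM in the TrafficJam-Upd libraries of this class, and a mean of 75.4 CPM in somatic cells. ex and kibra were called higher than in all 4 other labels, but the somatic calls were lost when Nanos-Upd replicate 1 was left out (edgeR adjusted p = 0.147 and 0.145) and in 8 further alternatives each. The muscle call of kibra was lost in 10 alternatives. The ft level in the class was 2.77 and 2.04 CPM in Nanos-Upd and 23.5 and 18.8 CPM in TrafficJam-Upd libraries.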
